A study of Danio rerio with 2 samples.

Results

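Wide accessible regions present in both tumours were defined as pairs of 1 MYC peak and 1 MYCN peak on the 25 zebrafish chromosomes that overlapped by at least 1 bp, overlapped no other peak of the opposite list and were each at least 800 bp wide. There were 1282 such wide pairs among 52911 pairs of this 1 to 1 kind, a share of 2.42% (95% Wilson interval 2.30 to 2.56). The peaks came from ATAC-seq of neuroblastoma cells that carried EGFP under control of dbh, the gene of an enzyme of noradrenaline synthesis, sorted from tumours of MYC transgenic fish and from tumours of MYCN transgenic fish. Each library was made from 50000 sorted cells, and there was 1 library per transgene. The labels name neither the promoter that drives a transgene nor the number or age of the fish, and the peaks carry no gene names, so the neuroblast identity could not be checked against marker genes here. With 1 library per transgene, differences between MYC and MYCN describe these 2 libraries, and the read depth behind either is unknown from peak lists. Intervals cover counting error only, and no p-value was computed.

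In ATAC-seq the Tn5 transposase inserts sequencing adapters into DNA that is not wrapped around nucleosomes, and a peak marks a stretch where insertions pile up. Such stretches are typically promoters, enhancers and other sites where transcription factors displace nucleosomes, and a peak becomes wide where several such elements adjoin or where a long stretch of a promoter is kept open. MYC and MYCN are closely related transcription factors that bind largely to DNA that is already accessible, and either can drive neuroblastoma, a tumour of the sympathetic nervous lineage.

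Wide peaks were a small part of both lists. The MYC list held 3105 peaks of at least 800 bp, which was 3.99% of its 77834 peaks on chromosomes, and the MYCN list held 1926, which was 2.81% of 68556. The wide pairs took up 41.3% of the wide MYC peaks and 66.6% of the wide MYCN peaks. Among the other wide MYC peaks, 1124 were paired 1 to 1 with a MYCN peak under 800 bp, 633 overlapped more than 1 MYCN peak, 35 overlapped 1 MYCN peak that also met a second MYC peak, and 31 overlapped none. Among the other wide MYCN peaks, 356 had a narrower MYC partner, 231 overlapped more than 1 MYC peak, 40 overlapped 1 MYC peak that also met a second MYCN peak, and 17 overlapped none. The share of all peaks of either list that overlapped none was not computed, so these last counts have no comparison here.

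Most wide pairs lay close to the limit. By the smaller width of the pair, 948 measured 800 to 999 bp, 250 measured 1000 to 1199 bp, 70 measured 1200 to 1499 bp and 14 measured 1500 bp or more. MYC peaks of the wide pairs had a median width of 951 bp (quartiles 877 and 1072), and their MYCN partners one of 927 bp (859 and 1038). Just inside the limit, the pair on chromosome 7 at 59974457 to 59975256 in MYC was 800 bp wide there and 958 bp wide in MYCN. The pair on chromosome 8 at 55847625 to 55848499 in MYC was 875 bp wide there and 800 bp in MYCN, and the pair on chromosome 9 at 58110595 to 58111394 in MYC was 800 bp wide there and 917 bp in MYCN. Just outside it lay 3 pairs on chromosome 3, with MYC widths of 799, 799 and 816 bp and MYCN widths of 799, 845 and 799 bp.

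Within wide pairs, both libraries drew nearly the same outline. The width of the MYC peak exceeded that of the MYCN peak by a median of 16 bp (order-statistic 95% interval 13 to 19, quartiles -21 and 60), beside 26 bp over all 1 to 1 pairs. In 1002 wide pairs (78.2%) the narrower peak had at least 90% of the width of the wider one, beside 37.6% of all 1 to 1 pairs. The MYC peak was the wider one in 781 wide pairs, or 60.9% (58.2 to 63.6), beside 64.0% of all 1 to 1 pairs. The widths were equal in 14 wide pairs (1.09%), beside 0.930% of all 1 to 1 pairs. A MYC peak at least 1.2 times as wide as its partner was found in 89 wide pairs (6.94%), beside 31.7% of all 1 to 1 pairs, and a MYCN peak at least 1.2 times as wide in 34 (2.65%), beside 13.8%. A given ratio spans more bp in wider peaks, and the limit drops pairs with 1 peak under 800 bp. The part of either in these shares was not tested. In bp, the widths differed by a median of 42 in wide pairs, beside 58 over all 1 to 1 pairs. Across wide pairs the widths had a Spearman correlation of 0.69 (n = 1282 sites of the same 2 libraries), beside 0.67 over all 1 to 1 pairs.

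**Figure D1:**
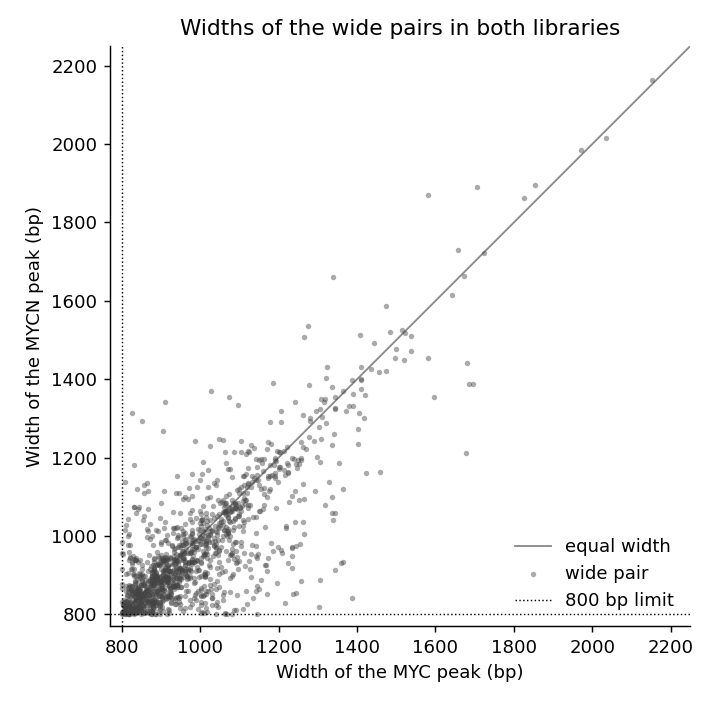
Width in bp of the MYC peak (horizontal axis) against the MYCN peak (vertical axis) for each of the 1282 wide pairs, drawn as 1 point each. Points gather along the line of equal width, around medians of 951 bp (MYC) and 927 bp (MYCN), and thin out above 1500 bp.

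The limit on both widths leaves out the 1124 wide MYC peaks and 356 wide MYCN peaks with a narrower partner. The part of this selection in the distances between edges was not tested. Both starts and both ends lay at most 100 bp apart in 982 wide pairs, or 76.6% (74.2 to 78.8), beside 70.8% of all 1 to 1 pairs. At most 20 bp separated both edges in 276 wide pairs (21.5%, 19.4 to 23.9), beside 14.6% of all 1 to 1 pairs. The median distance was 24 bp between the starts and 24 bp between the ends, beside 32 bp for starts and 33 bp for ends over all 1 to 1 pairs. Exactly 1 edge differed by more than 100 bp in 276 wide pairs (21.5%) and both did in 24 (1.87%), beside 26.3% with 1 such edge and 2.90% with both over all 1 to 1 pairs.

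As over all 1 to 1 pairs, the MYC peak more often reached further out on both sides. At the start, it reached beyond the MYCN peak by more than 100 bp in 99 wide pairs (7.72%), and the MYCN peak reached beyond it by as much in 59 (4.60%), beside 10.6% for MYC and 5.31% for MYCN over all 1 to 1 pairs. At the end, the counts were 104 for MYC (8.11%) and 62 for MYCN (4.84%), beside 10.8% for MYC and 5.39% for MYCN. The MYC peak spanned the whole MYCN peak in 471 wide pairs (36.7%), the MYCN peak spanned the MYC peak in 185 (14.4%), and in 623 the peaks were offset. Of these, 321 had the MYC peak shifted to lower coordinates and 302 had it shifted to higher ones, so neither direction prevailed. Over all 1 to 1 pairs the MYC peak spanned its partner in 39.3% and the MYCN peak did so in 15.7%. The MYC list was also the longer one, and the part of read depth in its wider outlines was not tested.

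**Figure D2:**
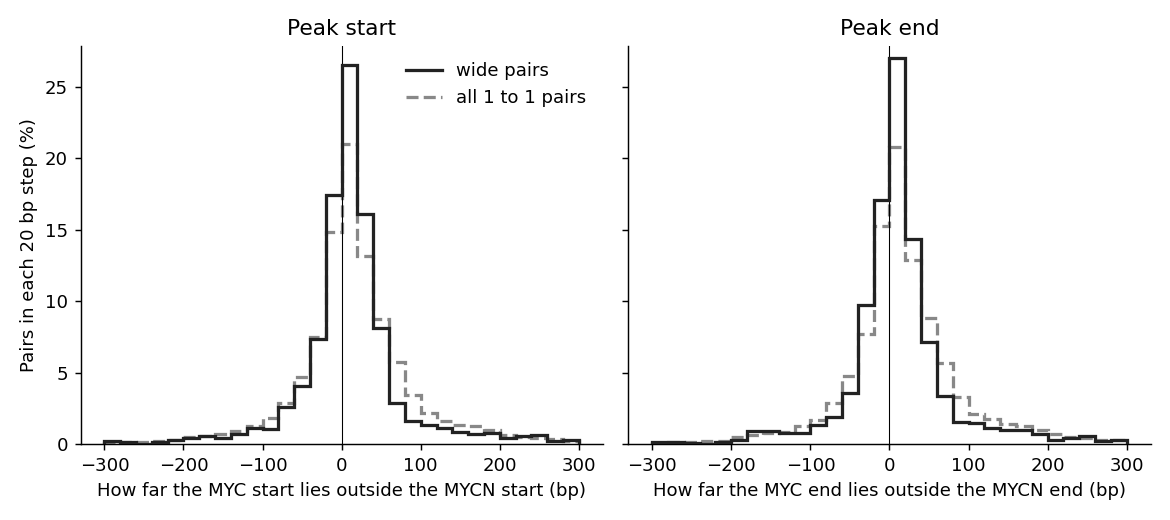
Share of pairs (vertical axis, %) by how far the MYC start or end lies outside the MYCN one (horizontal axis, bp, steps of 20 bp, positive where MYC reaches further), for wide pairs (solid) and all 1 to 1 pairs (dashed). Both curves peak just above 0, and that of the wide pairs is higher there, with 26.5% of starts and 27.0% of ends within the first 20 bp outside. Offsets beyond 300 bp are not drawn.

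The bases shared by a wide pair made up a median of 93.9% of the bases covered by either peak (Jaccard index, quartiles 88.6 and 96.6), beside 79.7% over all 1 to 1 pairs. Wider peaks reach a higher index for the same distance between edges, so this comparison partly restates width. The index was at least 90% in 907 wide pairs (70.7%) and under 70% in 26 (2.03%), beside 23.6% and 30.8% of all 1 to 1 pairs. The edges were identical to the base in 0.051% of all 1 to 1 pairs and in 3 wide pairs (0.234%). These were the pair on chromosome 22 at 27731297 to 27732406, with scores of 415 in MYC and 399 in MYCN, the pair on chromosome 4 at 2240809 to 2241664, with scores of 721 in MYC and 454 in MYCN, and the pair on chromosome 10 at 16745239 to 16746045, with scores of 887 in MYC and 967 in MYCN. The score is the whole number that the authors' peak caller gave each peak and serves here as a rank within its own list, so values of MYC and MYCN need not share a scale.

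In the 3 least alike pairs both edges were shifted to the same side by more than 100 bp. The lowest index, 51.8%, belonged to a pair on chromosome 13, at 28841067 to 28841895 in MYC and 28841289 to 28842237 in MYCN, where both edges lay to the left in MYC, by 222 bp at the start and 342 bp at the end. A pair on chromosome 21 was shifted the same way, at 25875864 to 25876988 in MYC and 25876115 to 25877328 in MYCN. On chromosome 22, the MYC peak at 22488983 to 22489893 and the MYCN peak at 22488441 to 22489781 had an index of 55.0%, with both edges further to the right in MYC, by 542 bp at the start and 112 bp at the end. All 3 of these pairs were strong or moderate, with score percentiles of 74.8 to 98.7 in MYC and 70.3 to 98.3 in MYCN. A percentile is the mid-rank of the peak by score within its list, in % of the peaks in it.

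Extensions ran in either direction. The largest excess of MYC width was 544 bp, on chromosome 22, where the MYC peak at 10512182 to 10513567 began 540 bp before the MYCN peak at 10512722 to 10513563 and ended 4 bp after it. On chromosome 2, the MYC peak at 37574699 to 37576002 was 1304 bp wide and reached 249 and 237 bp beyond the MYCN peak of 818 bp, so both edges moved outwards. On chromosome 19, the MYC peak at 44409142 to 44410820 was 1679 bp wide and the MYCN peak was 1213 bp wide, with starts 3 bp apart. These 3 were the pairs with the widest MYC excess.

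The largest excess of MYCN width was 488 bp, on chromosome 16, where the MYC peak at 28175468 to 28176293 was 826 bp wide and the MYCN peak at 28175479 to 28176792 was 1314 bp wide. The starts differed by 11 bp and the ends by 499 bp. On chromosome 5, the MYC peak at 1187750 to 1188600 was 851 bp wide and the MYCN peak at 1187405 to 1188697 was 1293 bp wide, and on chromosome 22 the pair with a start offset of 542 bp measured 911 bp in MYC against 1341 bp in MYCN. In the chromosome 16 and chromosome 5 pairs the MYC peak was weak, at score percentiles of 42.7 on chromosome 16 and 10.9 on chromosome 5, and the MYCN peak stood at 67.3 on chromosome 16 and 44.0 on chromosome 5. Across wide pairs, the width difference and the difference in score percentile had a Spearman correlation of 0.12 (n = 1282), beside 0.41 over all 1 to 1 pairs.

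Wide pairs stood high in both lists by score. In the MYC list 633 wide pairs belonged to the highest 10% by score, or 49.4% (46.6 to 52.1), beside 13.9% of all 1 to 1 pairs. In the MYCN list 605 did, or 47.2% (44.5 to 49.9), beside 12.2%. The highest 10% of both lists held 515 wide pairs (40.2%), beside 9.13% of all 1 to 1 pairs, while 118 were in that of MYC alone (9.20%), 90 in that of MYCN alone (7.02%) and 559 in neither (43.6%), beside 4.77%, 3.10% and 83.0% of all 1 to 1 pairs. The median score percentile was 89.9 in MYC and 88.9 in MYCN. Over all 1 to 1 pairs score and width rose together, with a Spearman correlation of 0.61 in MYC and 0.62 in MYCN. These score ranks are therefore not independent of the rule on width, and the part of that rule was not tested. Among the wide pairs themselves, with widths cut off at 800 bp, the correlations were 0.05 in MYC and 0.09 in MYCN (n = 1282). The share in the highest 10% still rose with width. It was 48.2% in MYC and 45.6% in MYCN for pairs of 800 to 999 bp. For the 14 pairs of 1500 bp or more it was 71.4% in MYC and 78.6% in MYCN.

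**Figure D3:**
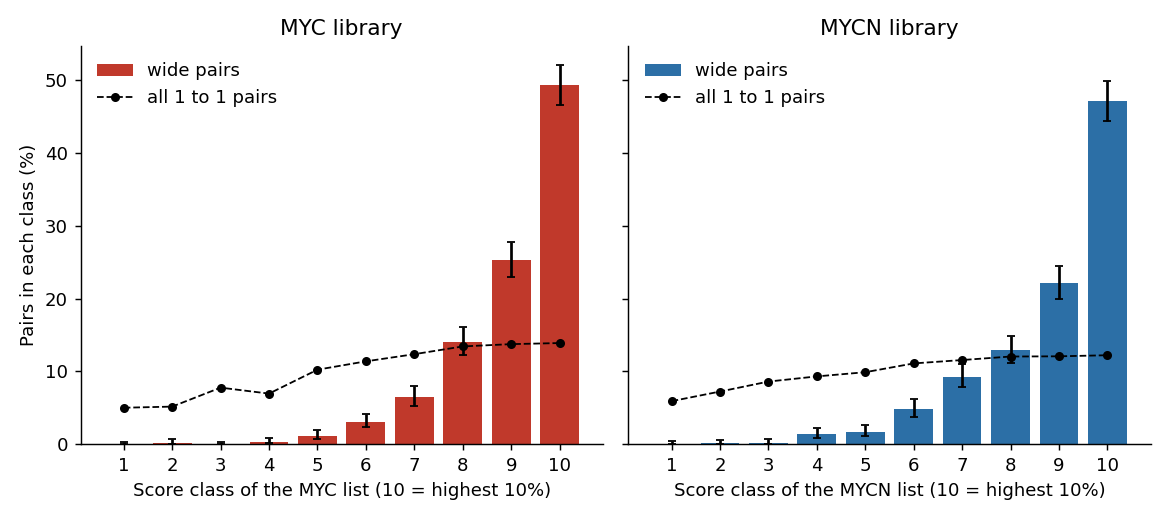
Share of wide pairs (bars, 95% Wilson intervals) and of all 1 to 1 pairs (dashed line) in each of 10 score classes of the MYC list (left) and the MYCN list (right), with class 10 the highest. The bars climb to 49.4% in MYC and 47.2% in MYCN in the highest class, while the line reaches 13.9% in MYC and 12.2% in MYCN there. Tied scores make the classes slightly unequal.

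Scores ranked wide pairs much alike in both libraries. The Spearman correlation of the scores was 0.84 across 1282 wide pairs, beside 0.73 across all 1 to 1 pairs. The score percentiles of the paired peaks differed by a median of 3.66 points in wide pairs and 11.8 points in all 1 to 1 pairs, and percentiles near the top of a list have less room to differ.

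The strongest wide pairs were among the leading sites of both libraries. The pair on chromosome 16 at 28154496 to 28155902 in MYC, 1407 bp wide there and 1514 bp in MYCN, ranked 6 by score in both lists. The pair on chromosome 15 at 45149333 to 45150415 in MYC ranked 10 in MYC and 3 in MYCN, and its outlines differed by 3 bp at the start and 2 bp at the end. The pair on chromosome 13 at 46144215 to 46145115 in MYC ranked 21 in MYC and 14 in MYCN. Width and high score were both part of the choice of these sites. Next came the pair on chromosome 10 at 16751457 to 16752647, at ranks 18 in MYC and 19 in MYCN, and the pair on chromosome 7 at 62722846 to 62723691, at ranks 23 in MYC and 26 in MYCN.

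Wide but weak regions were rare. The score was below the median of its list in 22 wide pairs in MYC (1.72%) and 46 in MYCN (3.59%), and in both lists for 10. Over all 1 to 1 pairs, 35.2% were below the median in MYC, 41.0% in MYCN and 25.7% in both. The weakest pair lay on chromosome 7 at 66253323 to 66254220 in MYC and scored 43 there and 38 in MYCN. The next were the pair on chromosome 20 at 55775581 to 55776918 in MYC, 1338 bp wide there and 1661 bp in MYCN, with scores of 46 in MYC and 74 in MYCN, and the chromosome 5 pair at 1187750 to 1188600 in MYC, with scores of 40 in MYC and 86 in MYCN. In these 3 pairs the starts lay 276 to 345 bp apart, always with MYCN further out. The other 2 of the weakest 5, a chromosome 20 pair at 32149066 to 32149969 and a chromosome 14 pair at 51219635 to 51220713 in MYC, had edges within 54 bp of their MYCN partners and MYC scores of 92 and 94.

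The widest wide pairs, ranked by the smaller width of the pair, had much the same outline in both libraries. This ranking passes over pairs with 1 much narrower peak, and the part of this selection in the likeness of outline was not tested. The chromosome 19 pair with a MYC peak of 1679 bp, for example, was left out, as its MYCN peak measured 1213 bp. The 1 to 1 rule also left out wider peaks. A MYC peak of 4819 bp on chromosome 5, at 1199089 to 1203907, overlapped more than 1 MYCN peak. Of the widest 10, the score percentile was higher in MYC in 2 and higher in MYCN in 8. Over all 1282 wide pairs, the score percentile was higher in MYC in 761 (59.4%, 56.6 to 62.0). The widest lay on chromosome 7, 2152 bp wide in MYC (64249119 to 64251270) and 2162 bp wide in MYCN, with starts 7 bp and ends 3 bp apart and with score percentiles of 96.1 in MYC and 95.1 in MYCN. The second lay on chromosome 5 at 1192017 to 1194051 in MYC, 2035 bp wide there with a MYCN partner of 2015 bp, and was of middling score, at percentiles of 53.3 in MYC and 61.0 in MYCN. The third, on chromosome 7 at 59893451 to 59895420 in MYC, was 1970 bp wide there and 1984 bp in MYCN, and both lists were free of other peaks for 25 kb on either side. These 3 thus included strong sites, a middling one and a solitary one. Of the 14 pairs of 1500 bp or more, 71.4% (45.4 to 88.3) were in the highest 10% by score in MYC and 78.6% (52.4 to 92.4) in MYCN.

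Of the other 7 among the widest 10, chromosome 20 held 2. The first, at 6555441 to 6557165 in MYC, was 1725 bp wide there with a partner of 1723 bp in MYCN and ranked 80 in MYC and 11 in MYCN, and the second, at 7559649 to 7561306 in MYC, was 1658 bp wide there and 1730 bp in MYCN. Chromosome 14 also held 2, at 21108131 to 21109956 in MYC, at ranks 209 in MYC and 60 in MYCN, and at 31930010 to 31931650 in MYC, at ranks 2379 in MYC and 10527 in MYCN. The remaining 3 lay on chromosome 23 at 7821419 to 7823273 in MYC (1855 bp, with a MYCN partner of 1895 bp), on chromosome 10 at 12029685 to 12031390 in MYC (1706 bp, with a MYCN partner of 1891 bp) and on chromosome 2 at 19021378 to 19023049 in MYC (1672 bp, with a MYCN partner of 1664 bp). In 9 of these 10 pairs both edges lay at most 100 bp apart. The exception was the chromosome 10 pair, whose ends differed by 131 bp. Edges lay this close in 76.6% of all wide pairs and 70.8% of all 1 to 1 pairs. For the 14 pairs of 1500 bp or more the share was 85.7% (60.1 to 96.0), an interval that took in the 76.6%.

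The share of wide pairs with the higher score percentile in MYC was lower in the wider classes. The score percentile was higher in MYC than in MYCN in 585 of 948 pairs of 800 to 999 bp (61.7%, 58.6 to 64.8), in 142 of 250 pairs of 1000 to 1199 bp (56.8%, 50.6 to 62.8), in 32 of 70 pairs of 1200 to 1499 bp (45.7%, 34.6 to 57.3) and in 2 of 14 pairs of 1500 bp or more (14.3%, 4.01 to 39.9). The last class holds few pairs. Without it the lowest share was 45.7%, with an interval that took in an even split. Intervals of neighbouring classes overlapped throughout. This order was noticed after the values were seen and was not tested. Among narrower pairs the share ran the other way, at 58.2%, 59.2% and 61.4% for 200 to 399, 400 to 599 and 600 to 799 bp. The share of pairs with the wider MYC peak stood at 61.7% (58.6 to 64.8), 60.0% (53.8 to 65.9), 57.1% (45.5 to 68.1) and 42.9% (21.4 to 67.4) over the 4 classes of wide pairs. All 4 intervals took in the share of 60.9% over all wide pairs.

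**Figure D4:**
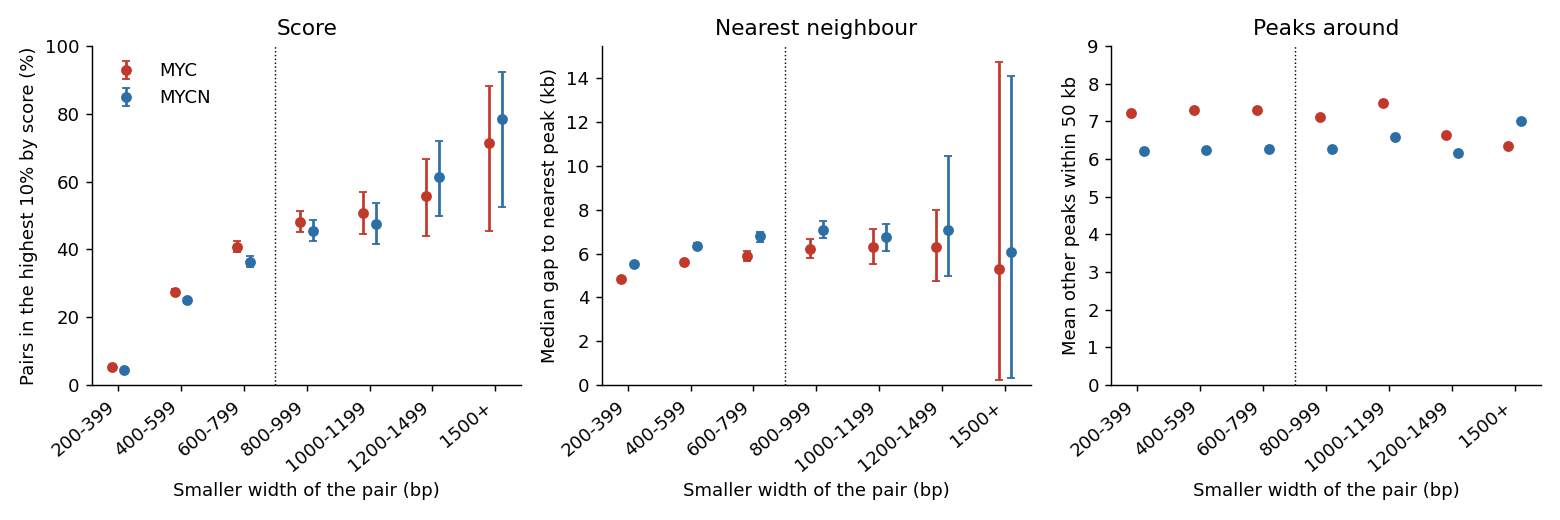
Pairs grouped by their smaller width (bp, horizontal axes), with the 800 bp limit as a dotted line and MYC left of MYCN at each class. The panels give the share in the highest 10% by score (%, 95% Wilson intervals), the median gap to the nearest other peak of the same list (kb, order-statistic 95% intervals) and the mean number of other peaks within 50 kb. The share in the highest 10% climbs to 71.4% in MYC and 78.6% in MYCN in the class of 14 pairs, the gap climbs up to the class of 800 to 999 bp and varies within its intervals beyond it, and the number of peaks around stays near 7 in MYC and 6 in MYCN except in the class of 14 pairs, where MYCN lies above MYC.

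Properties changed gradually with width, and the 800 bp limit marked no step. Pairs in the highest 10% of both lists made up 2.56% of those of 200 to 399 bp, 19.1% of those of 400 to 599 bp, 30.5% of those of 600 to 799 bp and 38.9% of those of 800 to 999 bp. Both edges lay at most 100 bp apart in 69.5%, 72.7%, 75.3% and 75.3% of the same classes. Within the highest 10% of both lists, this edge agreement no longer went with width: it was 79.2%, 78.1% and 78.7% in the 3 narrower classes and 76.9% (396 of 515) in wide pairs.

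Wide pairs had their nearest neighbour somewhat farther away. The 1 to 1 rule left out 633 wide MYC peaks and 231 wide MYCN peaks that overlapped more than 1 peak of the opposite list. The part of this selection in the distances was not tested. Another peak of the same list lay within 5 kb, edge to edge, of 488 wide pairs in MYC, or 38.1% (35.4 to 40.8), beside 49.0% of all 1 to 1 pairs. In MYCN the count was 423, or 33.0% (30.5 to 35.6), beside 43.9%. A neighbour within 5 kb was present in both lists for 365 wide pairs, in MYC alone for 123, in MYCN alone for 58 and in neither for 736. These were 28.5%, 9.59%, 4.52% and 57.4% of wide pairs, beside 38.8%, 10.2%, 5.11% and 45.9% of all 1 to 1 pairs. The median distance to the nearest other peak was 6219 bp in MYC (order-statistic 95% interval 5894 to 6644) and 6994.5 bp in MYCN (6687 to 7352), beside 5116 bp in MYC and 5855 bp in MYCN over all 1 to 1 pairs.

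The shortage of neighbours lay mainly between 1 and 5 kb. Up to 500 bp, 10.1% of wide pairs had their nearest MYC peak (8.61 to 11.9), beside 12.7% of all 1 to 1 pairs, and from 500 to 1000 bp 4.06% did, beside 4.13%. From 1 to 2 kb, 4.84% of wide pairs had their nearest MYC peak, beside 8.18% of all 1 to 1 pairs, and from 2 to 5 kb 19.0% did, beside 24.0%. From 5 to 10 kb the order turned, with 34.6% of wide pairs and 26.05% of all 1 to 1 pairs. Within 20 kb, 92.4% of wide pairs and 91.2% of all 1 to 1 pairs had another MYC peak. The number of other peaks within 50 kb had a median of 7 in MYC and 6 in MYCN for wide pairs and for all 1 to 1 pairs, with means of 7.16 in MYC and 6.33 in MYCN for wide pairs, beside 7.25 in MYC and 6.23 in MYCN for all 1 to 1 pairs. Among pairs in the highest 10% of both lists, the median gap in MYC also grew with width: it was 3989.5, 5574.5 and 5990.5 bp in the 3 narrower classes and 6644 bp in wide pairs.

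The nearest peak beside a wide pair was shared with the opposite list about as often as elsewhere. It was wide somewhat more often in both lists, though the MYC interval took in the share over all 1 to 1 pairs. The nearest other peak overlapped a peak of the opposite list in 71.4% of wide pairs in MYC (68.8 to 73.8) and 83.9% in MYCN (81.7 to 85.8), beside 72.2% in MYC and 83.0% in MYCN over all 1 to 1 pairs. This neighbour had a median width of 317 bp in the MYC list and 315 bp in the MYCN list, beside 333 bp in MYC and 321 bp in MYCN over all 1 to 1 pairs. Its median score percentile was 50.8 in MYC and 51.3 in MYCN, beside 50.6 in MYC and 50.4 in MYCN over all 1 to 1 pairs. It was itself at least 800 bp wide in 4.52% of wide pairs in MYC (3.52 to 5.80) and 4.06% in MYCN (3.11 to 5.28), beside 3.69% in MYC and 2.68% in MYCN over all 1 to 1 pairs. It belonged to another wide pair in 2.11% of wide pairs in MYC (1.45 to 3.05) and 2.57% in MYCN (1.84 to 3.59), beside 1.57% in MYC and 1.81% in MYCN over all 1 to 1 pairs. The intervals of these MYCN shares of wide neighbours lay above the shares over all 1 to 1 pairs, and those of the MYC shares reached down to them. For neighbours in another wide pair the MYCN margin was narrow, 1.84 against 1.81. Wide pairs that were each other's nearest neighbour were each counted, so these intervals are narrower than independent sites would give.

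A few wide pairs adjoined each other. Neighbouring wide pairs on the same chromosome lay a median of 628293 bp apart, and 13 of 1257 such gaps were at most 5000 bp. The closest were 226 bp apart on chromosome 20, where the MYC peaks at 25858568 to 25859448 and 25859742 to 25860566 and their MYCN partners of 913 and 872 bp followed each other. On the same chromosome, the MYC peaks at 55773972 to 55775029 and 55775581 to 55776918 had partners 1000 and 1661 bp wide, and 275 bp separated the pairs. On chromosome 5, the MYC peaks at 48659788 to 48660692 and 48661058 to 48662187 had partners 1268 and 1124 bp wide, and 319 bp separated them. In the first set the facing edges of both libraries lay within 35 bp of each other, whereas in the second the MYCN peak on the right began 276 bp before the MYC peak. In the third they lay within 26 bp.

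The most crowded surroundings were on chromosome 10 and chromosome 8. The wide pair on chromosome 10 at 16775192 to 16776025 in MYC had 29 other peaks within 50 kb in MYC and 29 in MYCN, and the pair at 16751457 in the same cluster had 21 in MYC and 22 in MYCN. With the pair of identical edges at 16745239, this cluster held 3 of the wide pairs described here. The wide pair on chromosome 8 at 36407739 to 36408743 in MYC had 23 other peaks within 50 kb in MYC and 26 in MYCN. At the other extreme, 7 wide pairs in MYC (0.546%, 0.265 to 1.12) and 12 in MYCN (0.936%, 0.536 to 1.63) had no other peak of their list within 50 kb, beside 1.16% in MYC and 1.15% in MYCN over all 1 to 1 pairs. The most isolated lay on chromosome 14 at 2386170 to 2387067 in MYC, 65748 bp from any other peak of either list, with score percentiles of 87.7 in MYC and 90.04 in MYCN. The chromosome 18 pair at 9811467 to 9812345 and a chromosome 7 pair at 52703952 to 52705288 in MYC followed, at 50994 and 50070 bp, and the chromosome 7 pair ranked 233 in MYC and 120 in MYCN.

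Wide pairs occurred on all 25 chromosomes. Their share of the 1 to 1 pairs was lowest on chromosome 4, with 26 of 1752 or 1.48% (1.01 to 2.17), and highest on chromosome 1, with 75 of 2463 or 3.05% (2.44 to 3.80), against 2.42% overall. These were the 2 chromosomes whose interval missed the overall share, and about 1 in 20 such intervals would miss it for independent sites. Under other settings the interval of the ratio to the overall share took in 1 for chromosome 1 with a limit of 1000 bp (0.733 to 1.83), 50% overlap (0.994 to 1.54), peaks at or above the median score (0.972 to 1.52) and peaks closer than 100 bp merged (0.984 to 1.49). For chromosome 4 it took in 1 with a limit of 1000 bp (0.249 to 1.18) and with peaks at or above the median score (0.506 to 1.07). On chromosome 4, 13 of 995 pairs before 22 Mb were wide (1.31%, 0.765 to 2.22), and 13 of 757 from there on (1.72%, 1.01 to 2.92), where the interval took in the overall share. In the terminal 2 Mb of the chromosomes 133 of 4849 pairs were wide (2.74%, 2.32 to 3.24), beside 2.39% elsewhere.

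**Figure D5:**
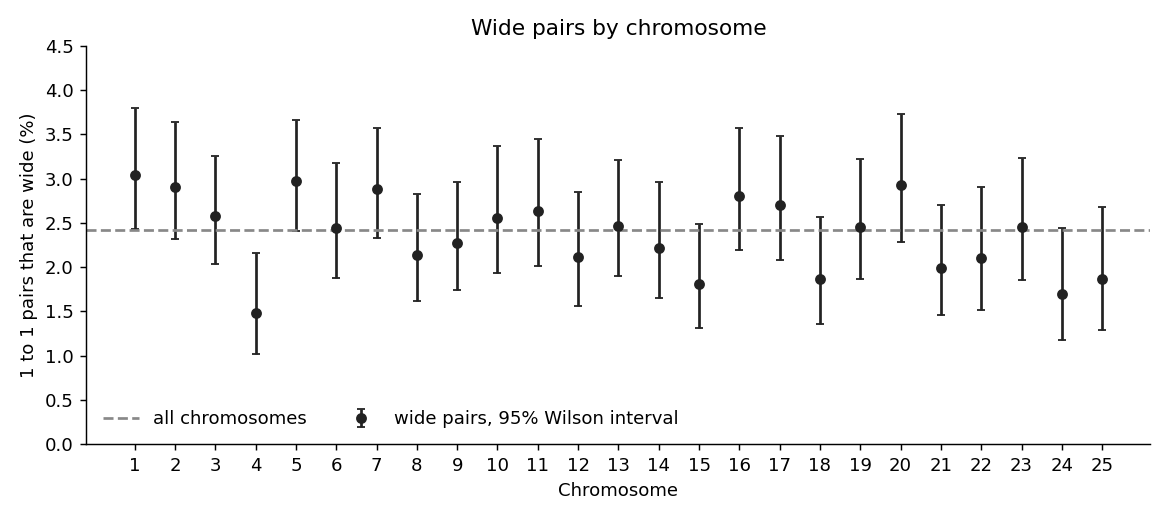
Share of the 1 to 1 pairs of each chromosome that were wide (%, vertical axis), with 95% Wilson intervals, and the share over all chromosomes as a dashed line. Chromosome 4 lies lowest at 1.48% and chromosome 1 highest at 3.05%, and the other intervals cross the line at 2.42%.

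Along the chromosomes, most windows of 1 Mb held at most 1 wide pair, and a few held 6 or 7. In windows of 1 Mb that held any 1 to 1 pair, 603 of 1369 held no wide pair, 440 held 1 and 207 held 2. The most wide pairs in a window were 7, on chromosome 14 from 22 to 23 Mb, among 44 1 to 1 pairs, and on chromosome 1 from 40 to 41 Mb, among 73. Windows with 6 lay on chromosome 5 from 1 to 2 Mb, among 35 1 to 1 pairs, on chromosome 19 from 44 to 45 Mb, among 50, on chromosome 17 from 37 to 38 Mb, among 55, and on chromosome 3 from 37 to 38 Mb, among 61. Over all chromosomes 2.42% of 1 to 1 pairs were wide. These windows were picked for their high counts, and clustering was not tested. The chromosome 5 window held the second widest pair and a pair among the weakest, at 1192017 and 1187750.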

How the data were processed

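Per the submitters' processing notes, the authors used Bowtie2 2.2.1, the zebrafish build danRer7 and MACS2 2.1.0. Settings, any control library, read shifting and duplicate removal are not given in the sources used here. Deposited files hold, for each library, the start, end and a whole-number score of each peak, and no header states the scale of the score; peaks were not pooled. Mitochondrial peaks (2 in MYC, 3 in MYCN) were left out. Starts are printed counted from 1. Pairs and summaries were computed with Python 3.11.15, numpy 2.4.6, pandas 2.3.3 and scipy 1.17.1, tested on simulated data and recounted with bedtools 2.31.1; figures were drawn with matplotlib 3.10.9. Score percentiles use mid-ranks within a list. "All 1 to 1 pairs" includes the wide pairs. The wide pairs, comparisons and rule for named regions were chosen with earlier results of these data known; the width classes, distance classes and 1 Mb windows were added after the values were seen. Named regions are the 10 widest (by the smaller width of the pair), 5 strongest and 5 weakest wide pairs. They also include 3 each for largest width difference either way, highest and lowest Jaccard index, either side of the limit, isolation, crowding and closest neighbours. Sequence and gene annotation of danRer7 were not used here.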

Additional observations from a re-analysis of the deposited data

How the results depend on the processing

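Of 68 recomputed values, 40 stayed within the counting interval of the main value (a correlation within 0.05, a count within 1.5 times). Some settings changed what a value counts, such as another distance between edges or to a neighbour. The 40 of 68 is therefore not a measure of how stable the results were. With a limit of 600 bp there were 4812 wide pairs (9.09% of 1 to 1 pairs), 64.0% with the wider MYC peak, 43.1% (MYC) and 39.3% (MYCN) in the highest 10% by score, and 41.3% (MYC) and 35.7% (MYCN) with a neighbour within 5 kb. With a limit of 1000 bp there were 334 (0.631%), with 80.2% edge agreement and 52.7% (MYC) and 51.8% (MYCN) in the highest 10%. When overlap had to cover 50% of each peak, the share of wide pairs was 2.68% and edge agreement 72.8%. With peaks at or above the median score of their list, 4.59% of pairs were wide, 33.9% (MYC) and 31.2% (MYCN) were in the highest 10% of what remained, and 20.6% (MYC) and 17.8% (MYCN) had a neighbour within 5 kb, since fewer peaks were left. With peaks closer than 100 bp merged, 2.89% were wide. Edges within 50 bp gave 56.6% agreement and within 200 bp 92.4%. Matching shares of all 1 to 1 pairs were not computed for either distance, 50% overlap or peaks at or above the median score. The highest 20% by score held 74.6% of wide pairs in MYC and 69.3% in MYCN. Of all 1 to 1 pairs, the highest 10% and the next 10% held 13.9% and 13.8% in MYC, and 12.2% and 12.1% in MYCN. Neighbours within 2 kb were found for 19.0% in MYC and 16.2% in MYCN, and within 10 kb for 72.7% in MYC and 66.5% in MYCN, beside 25.0% in MYC and 21.6% in MYCN (2 kb) and 74.996% in MYC and 70.2% in MYCN (10 kb) over all 1 to 1 pairs. The interval of the chromosome 1 ratio took in 1 under 4 settings and that of the chromosome 4 ratio under 2, as given with the chromosomes. The median width difference stayed above 0 under the 5 settings that could change it, at 13.5 to 19 bp. No paired analysis was possible because MYC and MYCN have 1 library apiece, and leaving out a replicate was likewise not possible. Depth cannot be read from peak lists, which limits how firmly widths and numbers of peaks compare between MYC and MYCN.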
